A study of Rattus norvegicus with 18 samples.

Results

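RNA isoforms were compared between the neuropil and the somata layer of the CA1 region of the rat hippocampus, each represented by 2 replicate libraries. The values are TPM, the share that an isoform takes of all transcripts of a library, corrected for its length and scaled to a fixed total. They are estimates for full-length isoforms that had been read on the PacBio platform, and the table holds 28268 of them. The 20393 isoforms that averaged 1 TPM or more across the 4 libraries were compared, and they held at least 99.8% of the TPM of each library. The lowest mean inside this limit was 1 TPM and the highest outside it was 0.9975 TPM, with 5126 of the 7875 isoforms outside it listed at 0 in all 4 libraries.

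All 4 libraries came from Sprague Dawley rats, males 4 weeks old, with no treatment or transgene named in the labels. The layers were dissected by hand from hippocampal slices, so each sample is a piece of tissue with all of its cell types. In such bulk samples, fewer cells of a type and less RNA per cell cannot be told apart. The labels do not say whether the replicates came from separate animals, and p-values then measure the spread between these libraries alone, which may be technical. The series holds 18 samples in all, and the whole hippocampus, ribosome fraction and footprinting samples are used here only where named.

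The layer of somata in CA1 is packed with the cell bodies of pyramidal neurons. The neuropil holds their dendrites, the axons that contact them and most of the synapses, together with scattered interneurons, astrocytes, oligodendrocytes, microglia and blood vessels. Some mRNAs are carried into dendrites and translated there, and the choice of a splice site, a start site or a polyadenylation site can decide which isoform of a gene travels. The comparison asks which isoforms differ in level between the layer with the cell bodies and the layer with the processes.

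Names of genes were known for 551 isoforms of 390 entries, those that the study listed because their reading frame gained or lost a signal peptide (524 isoforms) or was a conserved new frame (27 isoforms). Of these, 464 were among the tested isoforms. The other isoforms carry an identifier only, so common markers such as Gfap, Mbp or Camk2a could not be looked up and the dissection was checked only against the listed genes. No genome coordinates or sequences of the isoforms were used.

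The libraries did not separate cleanly by layer. On the log2(TPM + 1) scale, Pearson's r across the tested isoforms was 0.843 for the pair of somata replicates and 0.765 for that of neuropil. Neuropil replicate 2 correlated with somata replicates 1 and 2 at 0.802 and 0.814, above its value with neuropil replicate 1. Neuropil replicate 1 had the lowest values of all pairs, 0.753 and 0.752 with somata replicates 1 and 2. Which of the neuropil libraries is the unusual one cannot be told from these values. Isoforms are not independent replicates, so these values only describe the libraries. For some medians whose sign or size rested on 1 of the neuropil libraries, the value with that library left out is given below. The range of each list with 1 library left out at a time is given in the last section.

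With limma on log2(TPM + 1), 0 isoforms passed an adjusted p of 0.05 over all 20393 (0% called, smallest adjusted p = 0.179), and 1544 isoforms (7.57%) were higher and 1480 (7.26%) lower in neuropil at an unadjusted p under 0.05. Both neuropil libraries were above both somata libraries for 4646 isoforms (22.8%) and below both for 4501 (22.1%), and these are the isoforms called higher or lower in all 4 library pairs in what follows. With 2 libraries against 2, an exact permutation test of a single value cannot give a two-sided p below 0.333. The isoforms below are therefore described by their levels in each library.

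Isoforms of genes that mark astrocytes, oligodendrocytes, microglia and blood vessels were mostly higher in neuropil. Of 39 tested isoforms on these 4 lists, 23 were higher in all 4 pairs and 3 were lower, with a median difference of 0.66 on the log2(TPM + 1) scale against 0.01 over all tested isoforms. Among those that averaged 10 TPM or more, 21 of 27 were higher in all pairs and 0 were lower, where 26.2% and 28.9% of all isoforms at that level were higher and lower. These and the other gene lists were written with earlier results of these data known. The shares therefore describe the lists and do not test a shift. The median of the 39 was 0.61 in both pairs with neuropil replicate 1, and 0.87 and 0.71 in the pairs with neuropil replicate 2. Summed over the 39, the level was 1449 and 1562 TPM in somata and 2518 and 2772 TPM in neuropil. Listed isoforms of Csf1r, Slc7a10 and Tie1, markers of microglia, astrocytes and endothelium, were listed at 0 in all 4 libraries. None of the 39 passed an adjusted p of 0.05 over all tested isoforms, and 14 were higher and 0 lower at an unadjusted p under 0.05 (limma).

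The 18 tested isoforms of the astrocyte list summed to 718 and 811 TPM in the somata libraries and to 1226 and 1460 TPM in the neuropil libraries, a ratio of 1.76 (exact permutation p = 0.333, two-sided, n = 2 per layer). Fgfr3, a fibroblast growth factor receptor found on astrocytes, had an isoform of 3491 nt at 70.4 and 77.7 TPM in somata and at 145 and 158 TPM in neuropil. The isoform of 976 nt of Cldn10, a claudin, was at 108 and 116 TPM in somata and at 219 and 216 TPM in neuropil. Bcan encodes brevican, a proteoglycan of the matrix around synapses, and its isoform of 2605 nt was at 265 and 334 TPM in somata and at 464 and 601 TPM in neuropil. For these 3 isoforms the layers did not overlap, and the mean in neuropil was 2.04, 1.95 and 1.78 times that in somata.

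Other astrocyte isoforms had lower levels and more spread. The isoform of 2239 nt of Mfge8, a secreted protein that helps phagocytes bind their targets, was at 40.2 and 48.3 TPM in somata and at 62.0 and 105 TPM in neuropil. Ndrg2, an abundant astrocyte gene, had a listed isoform of 2206 nt at 7.70 and 0.70 TPM in somata and at 17.7 and 29.1 TPM in neuropil, so that the replicates of somata lay far apart. The isoform of 2773 nt of Tnfrsf19, a receptor of the tumour necrosis factor family, was listed at 0 in both somata libraries and at 3.15 and 2.23 TPM in neuropil. Going the other way, the isoform of 2579 nt of Prodh1 was at 11.7 and 7.57 TPM in somata and at 4.97 and 5.17 TPM in neuropil. The isoform of 2380 nt of Entpd2 was at 2.16 and 3.98 TPM in somata and at 0 and 1.18 TPM in neuropil. Of the 18 isoforms of the list, 10 (55.6%) were higher in all 4 pairs, 2 (11.1%) were lower and 6 overlapped. Over all tested isoforms, 22.8% were higher and 22.1% lower.

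Isoforms of vascular genes had the highest median of the 11 gene lists, 0.86 on the log2(TPM + 1) scale. In all 4 pairs, 7 of 9 tested isoforms (77.8%) were higher in neuropil and 0 lower, beside 22.8% and 22.1% of all tested isoforms. Cldn5, the claudin that seals the tight junctions of brain endothelium, had an isoform of 1346 nt at 83.4 and 87.3 TPM in somata and at 160 and 194 TPM in neuropil. Igfbp7, a secreted binding protein of vessels, had one of 937 nt at 239 and 255 TPM in somata and at 408 and 453 TPM in neuropil. The isoform of 4014 nt of Abcb1b, an efflux pump of the blood-brain barrier, was at 25.6 and 27.1 TPM in somata and at 41.8 and 47.6 TPM in neuropil. The level of Vtn, which encodes the matrix protein vitronectin, made by pericytes in the brain, was 7.41 and 8.56 TPM in somata and 24.6 and 31.7 TPM in neuropil for its isoform of 1212 nt. In all 4 the gap between the layers was wider than the spread of either pair of replicates. Eng, an endothelial receptor of the TGF-beta family, had an isoform of 3624 nt at 8.09 and 6.99 TPM in somata and at 24.4 and 13.7 TPM in neuropil. The 2 vascular isoforms that overlapped between the layers were the isoform of 1250 nt of Ramp2, at 77.9 and 64.2 TPM in somata and 106 and 70.5 TPM in neuropil, and the isoform of 1305 nt of Egfl7, which was listed at 0 in neuropil replicate 1.

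C1qb, a chain of the first complement component and a product of microglia in the brain, had an isoform of 1146 nt at 79.3 and 77.5 TPM in somata and at 182 and 161 TPM in neuropil. The neuropil levels were 2.19 times those of somata on average. Of the other 5 tested microglial isoforms, that of Tlr2, a receptor for bacterial lipoproteins, was higher in all 4 pairs at 2.64 and 3.02 TPM in somata against 4.69 and 7.88 TPM in neuropil, and 4 overlapped between the layers. The highest mean of those 5 was 11.5 TPM, of Pld4, so the summed level of the list rested on C1qb. Without neuropil replicate 2 the median of the list was 0.34, and without neuropil replicate 1 it was 0.92.

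The oligodendrocyte list had 4 of 6 tested isoforms (66.7%) higher in all 4 pairs and 1 (16.7%) lower. These shares stand beside 22.8% and 22.1% of all tested isoforms. Tf encodes transferrin, the iron carrier that oligodendrocytes make, and its isoform of 1736 nt was at 78.2 and 94.7 TPM in somata and at 106 and 130 TPM in neuropil. The isoform of 1089 nt of Apod, a lipocalin, was at 31.8 and 27.9 TPM in somata and at 41.7 and 57.4 TPM in neuropil. Gpr37, a receptor of myelinating cells, had an isoform of 2604 nt at 31.9 and 26.8 TPM in somata and at 53.5 and 36.5 TPM in neuropil. Gaps between the layers were narrow for these 3, and the isoforms of Gsn, the fourth gene, are described with the genes whose isoforms moved apart.

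**Figure D1:**
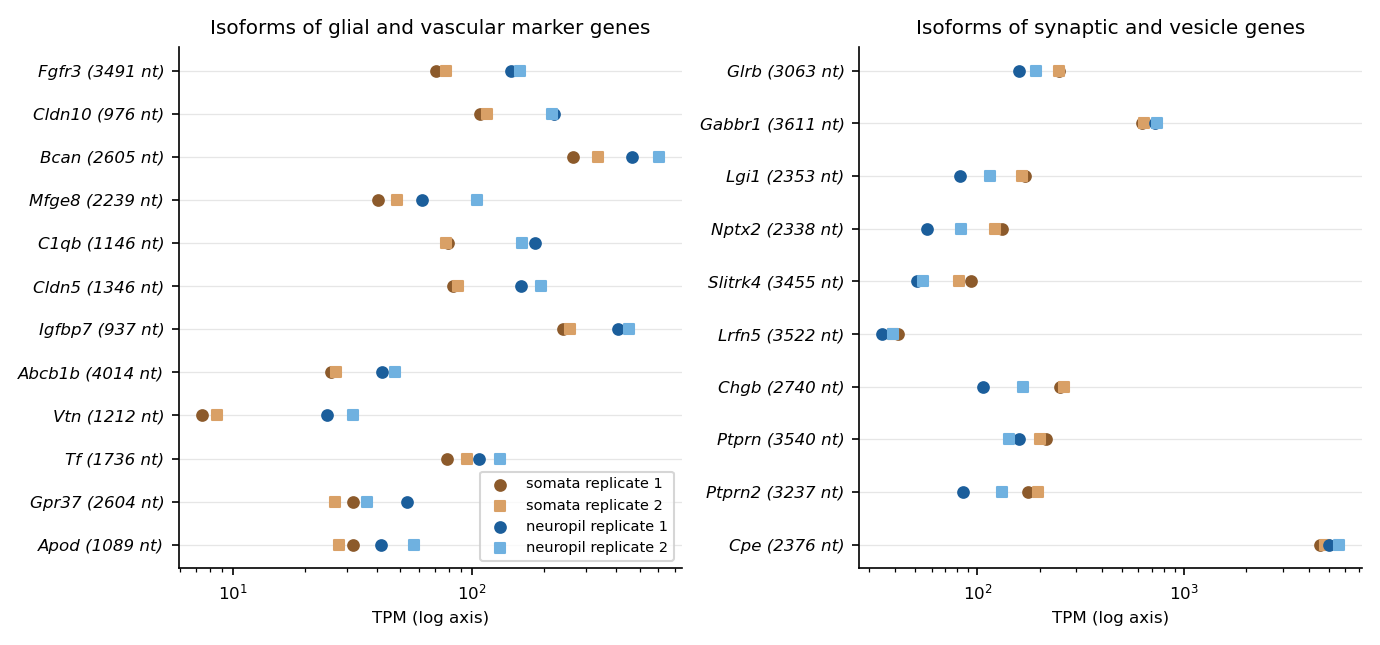
TPM (log axis) of single isoforms in each of the 4 libraries, with 1 row per isoform, its read length in nt, and 1 point per library. Left, isoforms of glial and vascular genes, where both neuropil points lie to the right of both somata points in all 12 rows. Right, isoforms of synaptic and vesicle genes, where both neuropil points lie to the left in all rows but those of Gabbr1 and Cpe. The isoform drawn is the most abundant listed one of each gene. The genes drawn are a chosen part of the lists, so the rows do not show how uniform a list is. Of the 39 glial and vascular isoforms, 13 overlapped and 3 were lower. Not drawn are Ramp2, Egfl7 and Prodh1, which overlapped or were lower, and Grik1, Ramp1, Igsf11 and Gpm6b, which were higher.

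Isoforms of synaptic genes had no common direction, and the adhesion list had the lowest median of the 4 lists. The 4 lists of receptor subunits, adhesion molecules and vesicle proteins, without the genes that were also on the lists of glia, held 47 tested isoforms, of which 21 (44.7%) were lower in neuropil in all 4 pairs and 11 (23.4%) were higher, beside 22.1% and 22.8% of all tested isoforms. Among the 32 that averaged 10 TPM or more, 15 were lower and 8 higher, beside 28.9% and 26.2% of all isoforms at that level. Their median difference was -0.29 on the log2(TPM + 1) scale, and -0.43, -0.31, -0.35 and -0.10 in the 4 pairs. At an unadjusted p under 0.05 there were 11 lower and 4 higher (limma, 7.26% and 7.57% of all tested), and 0 had an adjusted p under 0.05. The summed level did not follow the counts: these isoforms held 8456 and 8435 TPM in somata and 8241 and 8890 TPM in neuropil, of which 1 isoform of Cpe made up 4557 to 5625 TPM. The full lists of inhibitory and excitatory receptors, which keep Gabrg1 and Grm3 of the astrocyte list, each had 4 isoforms lower and 3 higher. Isoforms of Gabrg1 were among the 3 higher ones of the inhibitory list. The medians of these full lists were -0.06 and -0.07, and their summed levels were 1.04 and 1.31 times as high in neuropil as in somata. With 1 library left out at a time, the medians ran from -0.34 to 0.0064 for inhibitory and from -0.39 to 0.034 for excitatory receptors. Neither sign held throughout. At 5 TPM or more the median of the excitatory list was 0.79. The part of the higher glial and vascular levels in these values was not tested.

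Receptors for GABA and glycine inhibit neurons by opening chloride channels or through G proteins. The isoform of 3063 nt of Glrb, which anchors glycine receptors at synapses, was at 248 and 247 TPM in somata and at 158 and 192 TPM in neuropil. Gabra5, an alpha subunit of GABA-A receptors, had an isoform of 2497 nt at 13.3 and 24.1 TPM in somata and at 7.81 TPM and 0 in neuropil. In both genes the neuropil libraries were below both somata libraries.

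The metabotropic GABA-B receptor and the glial gamma subunit did not share this pattern. The most abundant listed isoform of Gabbr1, of 3611 nt, was at 627 and 639 TPM in somata and at 724 and 739 TPM in neuropil, and its isoforms of 2805 and 2418 nt overlapped between the layers. Gabrg1, a GABA-A subunit found in astrocytes and so placed on the astrocyte list as well, had an isoform of 4235 nt at 107 and 106 TPM in somata and at 162 and 148 TPM in neuropil. A shorter isoform of 3538 nt of the same gene was at 34.3 and 27.9 TPM in somata and at 41.3 and 58.3 TPM in neuropil, and one of 7522 nt overlapped. The 10 tested isoforms of the list thus split into 3 higher, 4 lower and 3 overlapping.

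Isoforms of genes for excitatory receptors and their partners were scarce, and 2 of the 9 tested averaged 10 TPM or more. Trpc4, a cation channel subunit, had an isoform of 3079 nt at 8.55 and 6.94 TPM in somata that was listed at 0 in both neuropil libraries. The isoform of 2753 nt of Neto1, an auxiliary subunit of kainate receptors, was at 4.62 and 6.08 TPM in somata and listed at 0 in both neuropil libraries. In contrast, an isoform of 6343 nt of Grik1, a kainate receptor subunit, was at 12.0 and 13.6 TPM in somata and at 27.5 and 19.0 TPM in neuropil, and Ramp1, which modifies a receptor for the peptide CGRP, was at 34.3 and 38.5 TPM against 67.6 and 62.7 TPM.

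Secreted organizers and adhesion molecules of synapses were lower in neuropil for 8 of 17 tested isoforms (47.1%) and higher for 4 (23.5%), the second near the share of all tested isoforms. Of the 17, 15 averaged 10 TPM or more, where 28.9% of all isoforms were lower. Lgi1, a secreted protein that bridges ADAM22 receptors across the synapse, had an isoform of 2353 nt at 170 and 163 TPM in somata and at 82.1 and 116 TPM in neuropil. Nptx2 encodes a pentraxin that clusters AMPA receptors, and its isoform of 2338 nt was at 131 and 121 TPM in somata and at 56.9 and 83.6 TPM in neuropil. For Slitrk4, a leucine-rich repeat adhesion molecule, the isoform of 3455 nt was at 93.1 and 81.7 TPM in somata and at 50.9 and 54.7 TPM in neuropil. These differences were larger than the spread of the replicates in both layers.

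Lrfn5, a related adhesion molecule, had 2 listed isoforms whose gaps differed in size. That of 2933 nt was at 39.3 and 40.3 TPM in somata and at 19.7 and 22.9 TPM in neuropil. That of 3522 nt was at 41.4 and 39.2 TPM in somata and at 34.6 and 38.8 TPM in neuropil, a gap of less than 1 TPM between somata replicate 2 and neuropil replicate 2. Whether the isoforms differ in their shift was not tested. Higher levels in neuropil were listed for Igsf11, an adhesion molecule of the immunoglobulin family, at 47.1 TPM in both somata libraries and at 72.4 and 69.2 TPM in neuropil, and for Gpm6b, a proteolipid found in neurons and glia, at 213 and 230 TPM against 276 and 379 TPM.

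Dense-core vesicles store neuropeptides and hormones. Of the 4 isoforms on the vesicle list that averaged 50 TPM or more, 3 were lower in neuropil and 1 was higher. At that level 39.6% of all isoforms were lower and 25.8% higher, so lower was the commoner direction there. Chgb encodes chromogranin B, a core protein of these vesicles, and its isoform of 2740 nt was at 251 and 262 TPM in somata and at 106 and 167 TPM in neuropil. Ptprn and Ptprn2 encode phosphatase-like membrane proteins of the vesicles. The most abundant listed isoform of Ptprn, of 3540 nt, was at 214 and 200 TPM in somata and at 158 and 142 TPM in neuropil. That of Ptprn2, of 3237 nt, was at 176 and 195 TPM against 85.5 and 131 TPM. The isoform higher in neuropil was that of Cpe, the carboxypeptidase that trims prohormones, whose isoform of 2376 nt was at 4557 and 4800 TPM in somata and at 4997 and 5625 TPM in neuropil. The median of the list was -0.38 without neuropil replicate 2 and 0.24 without neuropil replicate 1, so its sign rested on 1 library. Ptprn also had a listed isoform of 3653 nt that overlapped between the layers. It was at 10.3 and 15.55 TPM in somata and at 1.29 and 67.5 TPM in neuropil.

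**Figure D2:**
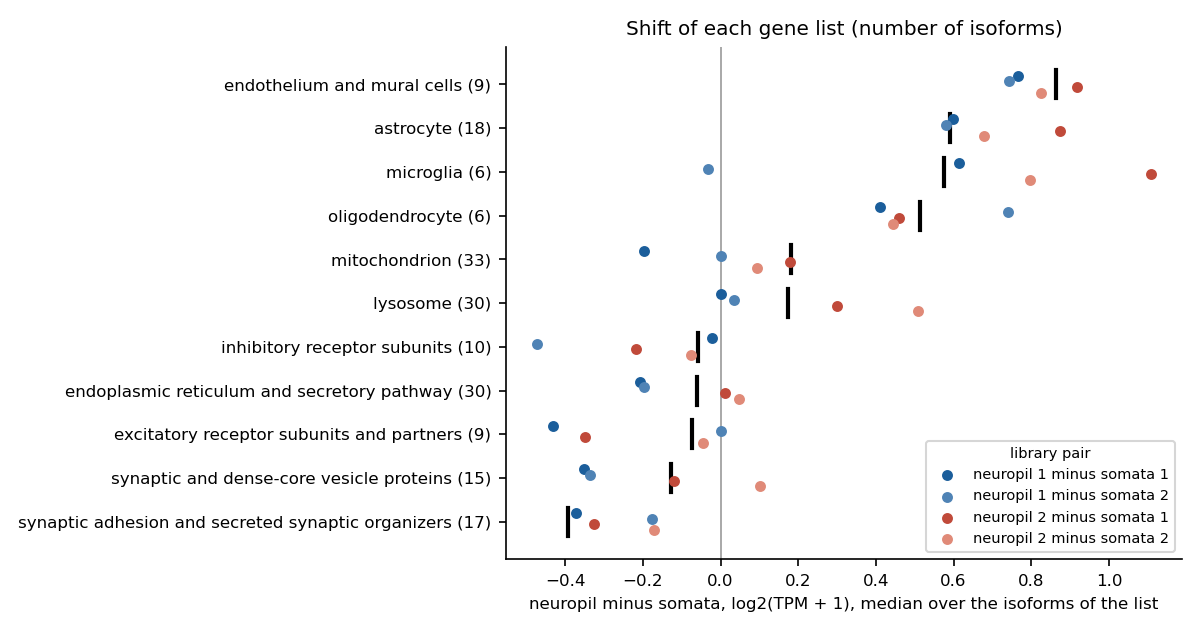
Neuropil minus somata difference on the log2(TPM + 1) scale for 11 gene lists, with the number of tested isoforms in brackets. Black bars are the median over isoforms of the difference between layer means, and points are the medians in each of the 4 library pairs. The 4 lists of glia and vessels have the highest medians, from 0.51 to 0.86, and the adhesion list has the lowest, -0.39.

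Organelle genes showed no common direction. Of 30 tested isoforms of the endoplasmic reticulum and secretory pathway, 5 were higher in all 4 pairs and 8 were lower, with a median of -0.06, beside 22.8% higher and 22.1% lower of all tested isoforms. Rpn1, a subunit of the complex that attaches glycans to new proteins, was lower in neuropil at 476 and 454 TPM in somata against 360 and 378 TPM, whereas Rpn2 of the same complex was at 63.7 and 42.4 TPM against 79.9 and 67.3 TPM. Of 33 mitochondrial isoforms, 7 were higher and 9 were lower, and the sign of their median, 0.18, turned to -0.24 without neuropil replicate 2. Ndufs3, a subunit of respiratory complex I, was at 294 and 267 TPM in somata and at 236 and 237 TPM in neuropil.

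Of 30 lysosomal isoforms, 9 (30%) were higher in neuropil in all 4 pairs and 4 (13.3%) were lower. Over all tested isoforms the shares were 22.8% and 22.1%, the first near that of the list. Ctsk encodes cathepsin K, and its isoform of 1457 nt was at 69.1 and 65.6 TPM in somata and at 27.2 and 27.8 TPM in neuropil, with replicates less than 4 TPM apart in both layers. Cpq, a secreted peptidase, had an isoform of 1423 nt at 51.8 TPM in both somata libraries and at 118 and 106 TPM in neuropil. The isoform of 2045 nt of Ctsd, cathepsin D, was at 45.8 and 47.3 TPM in somata and at 86.5 and 78.2 TPM in neuropil, while the more abundant one of 1925 nt overlapped at 190 and 202 TPM against 190 and 260 TPM. Sort1, a sorting receptor for lysosomal enzymes and neurotrophins, was lower in neuropil for both of its listed isoforms. The one of 3349 nt was at 263 and 288 TPM against 162 and 198 TPM.

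The number of isoforms that could pass a test depended on their level. Replicate differences on the log2(TPM + 1) scale had an SD of 1.63 in somata and 1.86 in neuropil at 1 to 5 TPM, and of 0.17 and 0.37 at 500 TPM and above. The share of isoforms that did not overlap between the layers was 29.5% in the lowest of 6 classes of level and 81.8% in the highest. Of the 3881 isoforms that averaged 50 TPM or more, 25.8% were higher in neuropil in all pairs and 1538 (39.6%) were lower. With each library centred on its median over these isoforms, 1115 were higher and 1370 lower.

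**Figure D3:**
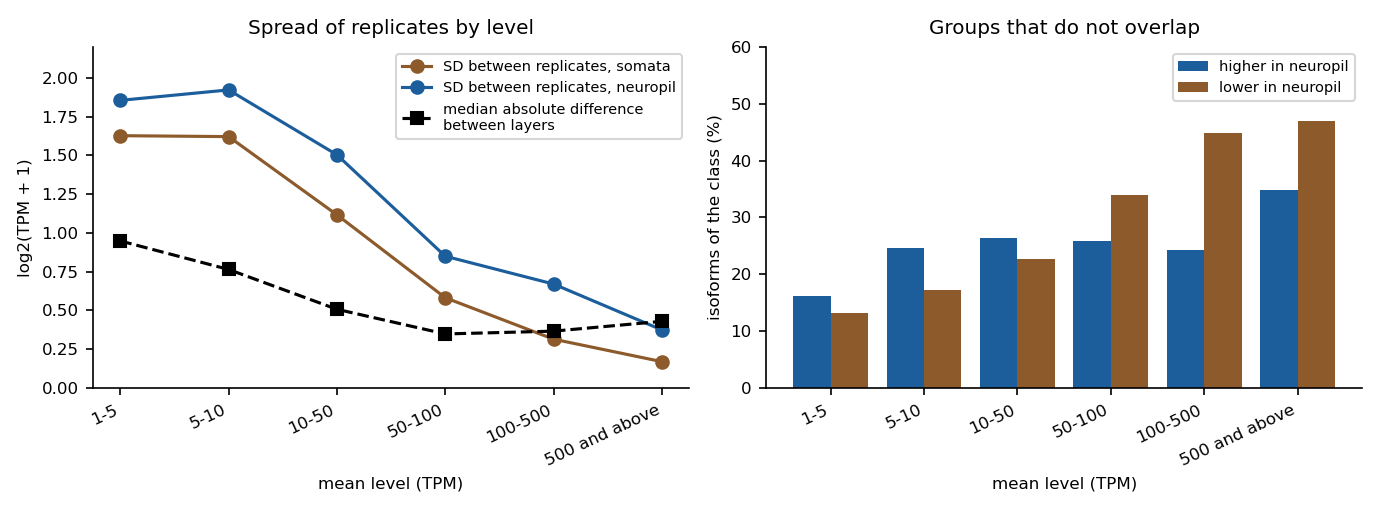
Left, SD of the log2(TPM + 1) difference between the 2 replicates of each layer, and the median absolute difference between layers, in 6 classes of mean TPM. Right, percent of the isoforms of a class that were higher (blue) or lower (brown) in both neuropil libraries than in both somata libraries. The SD between replicates is 0.17 and 0.37 at 500 TPM and above, and from 50 TPM up more isoforms are lower than higher.

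When the test was restricted to these 3881 isoforms, a limit picked with the values known, 210 (5.41%) were higher and 131 (3.38%) lower in neuropil at an adjusted p under 0.05 (limma, smallest adjusted p = 0.0391). Of the 121 isoforms at this level with a gene name, 9 passed as higher and 1 as lower, beside 5.41% and 3.38% of all 3881. The 9 were Fgfr3, Cldn10, Cldn5, Igfbp7, C1qb and Cpq with the isoforms above, and isoforms of Metrn, Oaf and Plat. Metrn encodes meteorin, a secreted factor made by glial progenitors and astrocytes, and its isoform of 916 nt was at 133 and 154 TPM in somata and at 305 and 316 TPM in neuropil, a difference of 1.11 on the log2(TPM + 1) scale (SE 0.14). Plat encodes tissue plasminogen activator, and its isoform of 2517 nt was at 67.0 and 70.7 TPM in somata and at 121 and 140 TPM in neuropil. For Oaf, whose role is not well described, the isoform of 1637 nt was at 89.7 and 91.2 TPM in somata and at 171 and 184 TPM in neuropil. The isoform lower in neuropil was one of 3571 nt of Itfg1, a membrane protein with integrin-like repeats, at 208 and 200 TPM in somata and at 105 and 97.6 TPM in neuropil. With a constant prior variance 0 isoforms passed in limma (smallest adjusted p = 0.0574), and 0 passed without either somata library. Without neuropil replicate 1, 154 higher and 164 lower passed, and without neuropil replicate 2, 502 and 754 passed.

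A larger shift, of at least 1 log2 unit in every library pair, was found for 850 isoforms higher (4.17%) and 744 lower (3.65%) in neuropil. They were of lower level than usual, with a median of 5.79 TPM for the first set and 4.24 TPM for the second against 11.03 TPM over all tested isoforms. Both libraries of the lower layer were listed at 0 for 344 of the 850 and for 408 of the 744. A value of 0 is an estimate here, since RSEM divides reads among isoforms that share sequence. In whole hippocampus RNA, a separate set of libraries, 16.4% of the isoforms shifted up and 14.9% of those shifted down were at 0. The share was 7.94% of all tested isoforms, a set not matched for their lower level, and the part of level was not tested. Of the isoforms shifted this far, 58 higher and 46 lower ones averaged 50 TPM or more.

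Among the 464 tested isoforms with a listed gene, 22 were higher and 15 lower by this measure, shares near those of all tested isoforms. Of these, 13 and 6 averaged 5 TPM or more and had a single gene name. The widest gap upward was that of Slc27a1, a transporter of long-chain fatty acids, whose isoform of 2674 nt was listed at 0 and 0.29 TPM in somata and at 11.6 and 24.1 TPM in neuropil. Med8 encodes a subunit of the Mediator complex, and its isoform of 1353 nt was at 0 and 1.25 TPM in somata and at 17.4 and 10.1 TPM in neuropil. Shisa4, a small membrane protein, had an isoform of 1111 nt at 0 and 8.43 TPM in somata and at 44.7 and 21.3 TPM in neuropil. In each of the 3 a somata library was listed at 0.

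Ncstn encodes nicastrin, a subunit of gamma-secretase, and its isoform of 3158 nt was at 3.64 TPM and 0 in somata and at 12.3 and 12.95 TPM in neuropil. Lysosomal genes in this group were Glmp, Dpp7 and Cpq. The isoform of 1474 nt of Glmp, a lysosomal membrane protein, was at 3.41 TPM and 0 in somata and at 12.99 and 14.9 TPM in neuropil, and that of 1916 nt of Dpp7, a peptidase, was at 8.12 and 7.15 TPM against 21.8 and 18.3 TPM. Emilin1, a matrix glycoprotein of vessel walls, had an isoform of 3621 nt at 3.95 and 3.73 TPM in somata and at 10.5 and 9.91 TPM in neuropil. Pus1, a pseudouridine synthase, was listed at 0 in both somata libraries for its isoform of 1594 nt and at 1.73 and 20.3 TPM in neuropil, so that the neuropil replicates lay far apart. The other 5 of the 13 were Gsn, Vtn, Ndrg2, Cpq and C1qb.

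Of the 6 listed isoforms lower in neuropil by this measure, 3 were listed at 0 in both neuropil libraries. They were an isoform of 1603 nt of Lypd1, a GPI-anchored modulator of nicotinic receptors, at 23.4 and 19.2 TPM in somata, one of 1815 nt of Slc39a7, a zinc transporter of the endoplasmic reticulum, at 10.5 and 20.2 TPM, and one of 1375 nt of Car4, a membrane-bound carbonic anhydrase, at 15.7 and 4.66 TPM. The other 3 stayed above 0. Auh, which encodes a mitochondrial hydratase, was at 8.54 and 11.5 TPM in somata and at 2.01 and 1.56 TPM in neuropil. Grsf1, an RNA-binding protein of mitochondria, had an isoform of 2641 nt at 90.3 and 63.4 TPM in somata and at 25.5 and 20.8 TPM in neuropil, and Ctsk was the last of the 6.

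Isoforms without a gene name reached larger gaps. The largest upward one among those averaging 10 TPM or more was an isoform of 1256 nt (RSN_LD4.107_ccs_108142_1256_0_1256_1256_SUB0_pTNu_31), listed at 0 in both somata libraries and at 59.6 and 107 TPM in neuropil. It was listed at 0 in both libraries of whole hippocampus too. The largest downward one was an isoform of 3279 nt (RNN_LD4.105_ccs_106912_3279_0_3279_3279_SUB0_pNAp_30), at 62.3 and 87.5 TPM in somata and at 0 and 0.03 TPM in neuropil, with a mean of 95.4 TPM in whole hippocampus. The 4 isoforms next in order upward had both neuropil libraries between 31.95 and 59.2 TPM with somata at 0 or 0.63 TPM, and the 4 next downward had both somata libraries between 39.8 and 107 TPM with both neuropil libraries at 0.

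Among isoforms above 0 in all 4 libraries, the largest gap upward was that of an isoform of 1449 nt (RNN_LD4.102_sub_32621_2684_0_1449_1449_SUB0_pTNp_21), at 9.33 and 0.90 TPM in somata and at 122 and 80.7 TPM in neuropil. Downward it was that of an isoform of 2590 nt (RSN_LD3.105_ccs_129260_2590_0_2590_2590_SUB0_pNAp_31), at 37.6 and 44.5 TPM in somata and at 0.05 and 0.20 TPM in neuropil. In the unadjusted test, the p-values of these 2 isoforms were 0.00638 and 3.32e-04, and their adjusted p-values were 0.198 and 0.179 (limma). The remaining 8 isoforms of this kind had differences from 2.69 to 3.38 upward and from -2.81 to -4.11 downward on the log2(TPM + 1) scale.

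Read length, taken from the identifier of each isoform, had little relation to the shift of a typical isoform. Over 8 classes of length, the median difference ran from -0.07 above 700 and up to 1000 nt to 0.06 above 2000 and up to 2500 nt on the log2(TPM + 1) scale. It was -0.03 for the 602 tested isoforms up to 700 nt and -0.01 for the 1158 above 4000 nt. The means by class in the 4 library pairs stayed between -0.11 and 0.11. Spearman's rho between read length and shift was 0.02 across the 20393 isoforms, a description over isoforms that share the 4 libraries.

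The share of TPM held by short isoforms differed more. Isoforms up to 700 nt held 8.56% and 8.14% of the TPM in the somata libraries and 9.72% and 9.62% in the neuropil libraries, a difference of 1.32 percentage points (exact permutation p = 0.333, two-sided, n = 2 per layer). Isoforms above 4000 nt held 6.50% and 6.58% in somata and 5.93% and 6.21% in neuropil. In 7 of the 8 classes the libraries of the layers did not overlap, up in 3 and down in 4, with no order by length. The length of an isoform weighted by its TPM averaged 2099 and 2111 nt in somata and 2064 and 2084 nt in neuropil.

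Among the short isoforms, a few abundant ones had large differences. The 10 short isoforms with the largest gains added 11242 TPM in neuropil, of a net gain of 13190 TPM over 804 isoforms up to 700 nt, and all 10 were higher in all 4 pairs. The 10 with the largest losses fell by 2451 TPM in sum. Without these 20 isoforms, which were chosen by their difference, a gain of 4398 TPM was left, and the class held 5.76% and 5.51% in somata and 6.20% and 5.95% in neuropil, values that do not overlap. The largest gain was that of an isoform of 558 nt (RSN_LD1.106_ccs_137372_558_0_558_558_SUB0_pNAp_34), at 2868 and 2797 TPM in somata and at 4467 and 5302 TPM in neuropil. The next were isoforms of 595 nt, at 1566 and 1734 TPM against 3304 and 3364 TPM, and of 539 nt, at 2360 and 2440 TPM against 3720 and 4426 TPM. The largest loss was that of an isoform of 402 nt (RNN_LD1.108_ccs_108470_402_0_402_402_SUB0_pNAp_42), at 1496 and 1474 TPM in somata and at 558 and 698 TPM in neuropil.

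**Figure D4:**
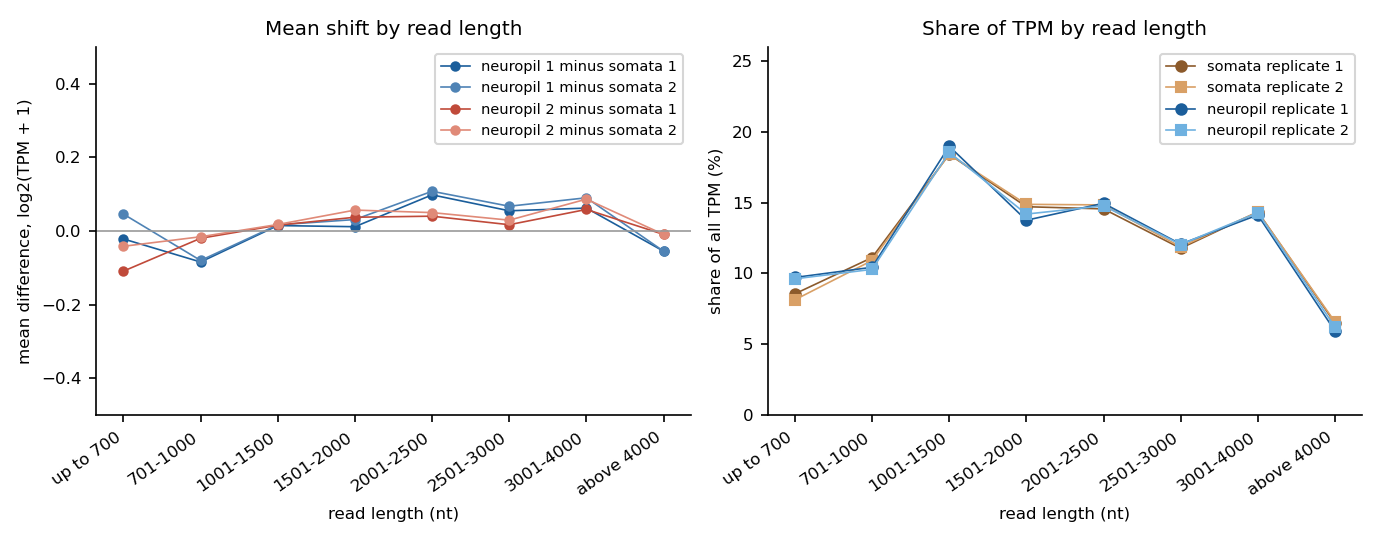
Left, mean neuropil minus somata difference on the log2(TPM + 1) scale in 8 classes of read length, with 1 line per library pair. Right, percent of all TPM held by each class in the 4 libraries. The lines on the left stay within 0.11 of zero, and on the right the libraries separate most at up to 700 nt, with 9.72% and 9.62% in neuropil against 8.56% and 8.14% in somata.

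Isoforms of a gene lie close together in the table. Of 94 pairs of adjacent rows that both had a listed gene name, 85 had the same one, and 535 of 537 steps from a listed isoform to the next followed the alphabet. Adjacent rows are therefore mostly isoforms of 1 gene or of genes near in the alphabet, and not every adjacent pair shares a gene. Among 15254 pairs of adjacent rows with both isoforms tested, 63 shifted in opposite directions and 62 in the same direction by at least 1 log2 unit in all library pairs. Rows 2, 3 and 5 apart gave 60, 58 and 53 opposite pairs, and rows 10 to 1000 apart gave 39 to 52. As a share of the pairs tested, this was 0.413% for adjacent rows and 0.264% to 0.366% for rows 10 to 1000 apart, a difference that was not tested.

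With no minimum size of the shift, adjacent rows went the same way more often than rows far apart did. Among adjacent rows 2008 pairs shifted in the same direction and 1391 in opposite directions, while among rows 1000 apart the numbers were 1380 and 1484. Between replicates of a layer the pattern was different. The difference between the somata replicates correlated at -0.10 between adjacent rows and that between the neuropil replicates at -0.06, and at 10 rows apart the values were -0.01 and 0.02. The difference between the layers correlated at 0.00 between adjacent rows. These are descriptions across row pairs that share the 4 libraries.

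**Figure D5:**
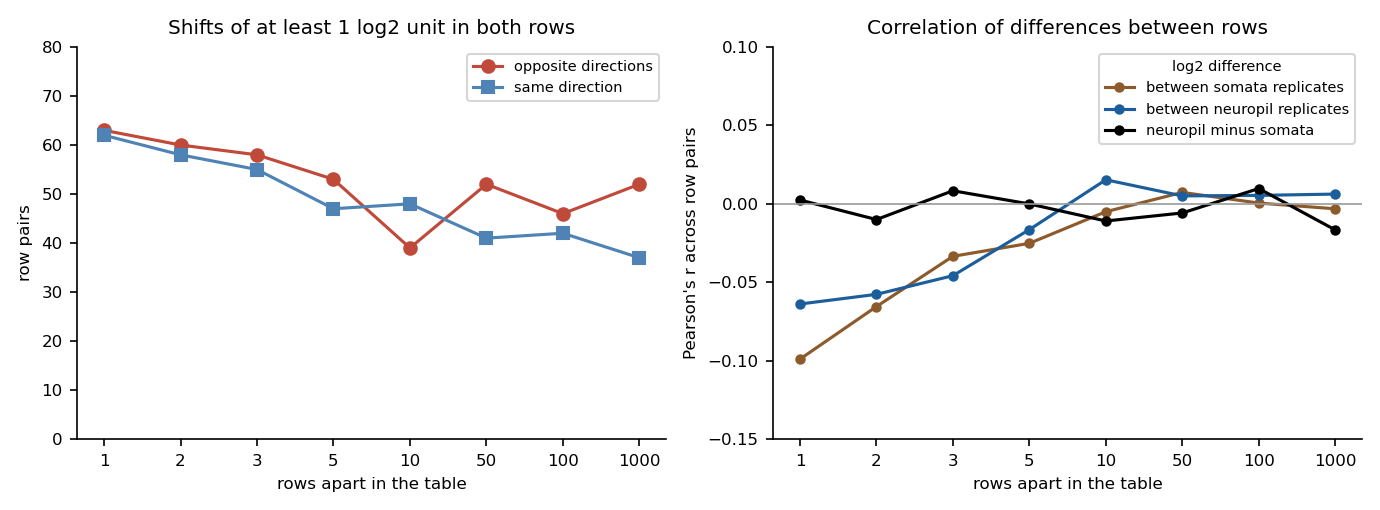
Left, number of row pairs with shifts of at least 1 log2 unit in all 4 library pairs in both rows, in opposite (red) or the same (blue) directions, by the number of rows between them. Right, Pearson's r between rows of the log2(TPM + 1) difference between somata replicates, between neuropil replicates and between layers. Opposite and same counts are alike at 63 and 62 for adjacent rows, and r is most negative there between somata replicates, at -0.10.

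The 63 opposite pairs were chosen for shifts in both directions, so the difference of their sum had to be smaller than that of a partner. The median size of the difference was 2.63 for the partner higher in neuropil and 2.42 for the other on the log2(TPM + 1) scale, and 0.49 for their sum, and the sum overlapped between the layers in 25 of the 63. At least 1 partner was listed at 0 in both libraries of a layer in 49 pairs. The longer isoform was the one higher in neuropil in 29 pairs and the shorter one in 34.

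Both partners averaged 10 TPM or more in 6 of these pairs, none of them with a gene name. In the pair with the largest shifts, an isoform of 2161 nt was at 0 in both somata libraries and at 18.5 and 48.2 TPM in neuropil, and its neighbour of 1242 nt was at 27.7 and 22.5 TPM in somata and at 0 in both neuropil libraries. In a second pair, of nearly equal length, the isoform of 3700 nt held 20.5% and 41.6% of the pair in somata and 88.9% and 85.9% in neuropil, and the other isoform had 3785 nt. The summed levels of that pair, 45.1 and 23.1 TPM in somata and 42.5 and 33.0 TPM in neuropil, overlapped. In a pair of 932 and 900 nt, the longer isoform held 21.9% and 22.2% of the pair in somata and 79.4% and 90.5% in neuropil. A pair of 2238 and 4064 nt had the shorter one at 35.8% and 57.4% of the pair in somata and at 100% in both neuropil libraries. In a pair of 4385 and 4138 nt the longer one went from 0% in both somata libraries to 76.6% and 47.4%. The last pair, of 1038 and 1301 nt, was lower as a whole, with 196 and 198 TPM in somata and 78.7 and 104 TPM in neuropil.

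Genes with several listed isoforms gave the same comparison with the gene known. Of 78 genes with at least 2 tested isoforms on the lists, 12 had an isoform higher and another lower in all 4 pairs. With no minimum size, opposite shifts were also found in 1391 of 15254 adjacent row pairs and in 1484 of 14209 row pairs 1000 apart. Several of the 78 genes have more than 2 isoforms, so a gene and a row pair are unlike units. The count therefore cannot say whether opposite shifts are particular to isoforms of 1 gene. The 12 genes were Entpd2, Grsf1, Gsn, Hdhd2, Kyat1, Lypd1, Med8, Ngrn, Nnt, Ptgs1, Ptprn and Pus1. No isoform of these genes reached an adjusted p under 0.05 over all tested isoforms (limma), and in Ptprn alone both a higher and a lower isoform had an unadjusted p under 0.05.

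Gsn encodes gelsolin, which severs actin filaments and is abundant in oligodendrocytes. Its isoform of 5534 nt was at 8.84 and 10.3 TPM in somata and at 48.3 and 35.2 TPM in neuropil, and its isoform of 2902 nt was at 2.21 and 1.91 TPM in somata and at 0 in both neuropil libraries. The isoform of 4843 nt overlapped. In Grsf1 the isoform of 2641 nt was lower in neuropil, as given above, and the one of 2252 nt was at 34.2 and 66.9 TPM in somata and at 77.5 and 71.4 TPM in neuropil. The neuropil libraries thus had the isoform of 2252 nt as the more abundant of these 2, and somata replicate 1 the other.

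Lypd1 had its isoform of 1603 nt at 0 in both neuropil libraries, while that of 2143 nt was at 24.2 and 31.4 TPM in somata and at 33.9 and 39.1 TPM in neuropil. Hdhd2, a phosphatase-like protein, had 2 isoforms with close replicates. That of 1663 nt was at 38.2 and 36.6 TPM in somata and at 52.8 and 53.2 TPM in neuropil, and that of 2367 nt was at 22.7 and 21.6 TPM in somata and at 15.6 and 13.8 TPM in neuropil. Both gaps were wider than the spread of the replicates and under 1 log2 unit.

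Med8 had its isoform of 1353 nt higher in neuropil and its most abundant listed one, of 2141 nt, slightly lower. The latter was at 37.9 and 41.8 TPM in somata and 27.8 and 35.9 TPM in neuropil. In Ptprn the isoform of 3624 nt was at 0.27 TPM and 0 in somata and at 2.79 and 10.3 TPM in neuropil. Its most abundant listed isoform, of 3540 nt, was lower in neuropil. The isoform of 1717 nt of Pus1 was at 20.8 and 24.0 TPM in somata and at 16.9 TPM and 0 in neuropil, where the isoform of 1594 nt took 1.73 and 20.3 TPM, so the replicates of neuropil differed in which isoform they held. In Nnt, a mitochondrial transhydrogenase, the isoform of 4292 nt was at 19.5 and 16.4 TPM in somata and at 26.6 and 27.2 TPM in neuropil, and that of 4061 nt was at 12.5 and 19.4 TPM against 11.5 and 3.27 TPM.

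The study's lists themselves did not separate the layers. Of 329 tested isoforms listed for the loss of a signal peptide, 95 (28.9%) were higher in neuropil in all pairs and 82 (24.9%) were lower, and of 110 listed for a gain, 26 (23.6%) were higher and 27 (24.5%) were lower. These shares are near the background of 22.8% and 22.1%. Of the 25 isoforms with a conserved new reading frame, 3 were higher and 7 were lower.

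Identifiers begin with RNN or RSN, a label that the sources used here do not explain. The 8931 tested RNN isoforms had a median difference of 0.04 and the 11462 RSN isoforms one of -0.01 on the log2(TPM + 1) scale. The share of TPM held by RNN isoforms was 47.1% and 46.9% in somata and 46.7% and 47.1% in neuropil, which overlap.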

How the data were processed

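RNA-seq libraries of CA1 somata and neuropil, 2 each, were compared. The deposited TPM values were made by the authors, who removed adapters with flexbar, mapped reads with Bowtie 2 to full-length transcripts from PacBio sequencing and estimated levels with RSEM. The submitters' processing notes name RSEM, TopHat2 and rn6, and versions are not given in the sources used here. TPM keeps no read depth, so depth is unknown, and a 0 is an estimate. Isoforms averaging 1 TPM or more were tested on log2(TPM + 1), a scale that understates the change of low isoforms. The test was limma 3.58.1 in R 4.3.3 (variance trend, two-sided, Benjamini-Hochberg over all tested). The fit was also run on simulated libraries, drawn with normal noise and without the many zeros of the real values. Their outcome is not reported here and does not vouch for the test on low isoforms. Python 3.11.15, pandas 2.3.3, numpy 2.4.6, scipy 1.17.1 and matplotlib 3.10.9 were used for the rest. Pair differences, read length (from identifiers), row neighbours and gene lists were described without set tests.

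Named isoforms were, at 10 TPM or more, the 5 with the largest smallest pair difference in each direction and the 5 above 0 in all 4 libraries, and, at 5 TPM or more, listed isoforms with 1 gene name shifted by 1 log2 unit in all pairs (at most 15 in each direction). They were also the 6 opposite row pairs, genes with opposite isoforms, and shifted members of the 11 gene lists, of which some are not reported here. Isoforms of Metrn, Oaf, Plat and Itfg1, and members that overlapped between layers, were chosen after their values were seen. Members and gene lists were chosen with earlier results of these data known. The alternatives varied the pseudocount, filter, scaling, prior variance, size of the shift and libraries. Those at 50 TPM, the combined pseudocount and prior variance, and the centring were chosen after seeing the data.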

Additional observations from a re-analysis of the deposited data

How the results depend on the processing

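Depth is unknown, and 2 libraries a layer limit every test. The causes of the changes below were not tested. Of 511 alternative values of the 39 named isoforms, 0 reversed, 497 kept their side of the threshold and 14 passed it. These isoforms were chosen for a shift of at least 1 log2 unit in all pairs. Leaving out a library or changing the pseudocount, filter or prior variance could therefore not reverse them, and the 0 is no sign of robustness. With a pseudocount of 5 TPM, 339 isoforms were higher and 274 lower by 1 log2 unit in all pairs, 7 listed isoforms each way, opposite neighbours numbered 9, the adhesion median was -0.29 and RNN minus RSN was 0.037. At 5 TPM or more these counts were 474 and 343, 13 and 6, and 18, with medians of 0.84 for astrocytes, 0.79 for excitatory receptors and -0.069 for mitochondria, and 0.0031 for isoforms above 4000 nt minus those up to 700 nt (0.026 at 1 TPM). At 50 TPM or more they were 58 and 46, 2 and 1, and 0, with medians of 0.86 for astrocytes, 0.82 for excitatory receptors, 0.21 for inhibitory receptors, 1.12 for microglia, -0.74 for adhesion and -0.63 for vesicles, 0.032 for RNN minus RSN and -0.081 for length, and 568 higher and 753 lower at an unadjusted p under 0.05 (210 and 131 adjusted). With no filter the medians were -0.33 for inhibitory receptors, -0.51 for adhesion and 0.046 for length. Quantile normalization gave -0.50 for adhesion and 0.0012 for length, and length classes cut at the outer deciles 0.070. With no minimum size, 4646 were higher, 4501 lower and 1391 neighbours opposite, and at 2 log2 units 267 and 280. Adding 0.1 TPM under a constant prior gave 205 higher and 258 lower at an adjusted p under 0.05 in limma, and 899 lower unadjusted. A constant prior variance at 50 TPM gave 0 and 0.

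Leaving out 1 library at a time, 1811 to 2596 isoforms were higher and 1433 to 2423 lower by 1 log2 unit, 39 to 57 and 34 to 56 of them listed, and 225 to 486 neighbours were opposite. These counts rise because fewer pairs must agree. Unadjusted calls ran from 1179 to 2214 higher and 1076 to 2487 lower, with 0 adjusted (limma), and at 50 TPM from 0 to 502 higher and 0 to 754 lower. Medians ran from 0.62 to 0.91 for astrocytes, 0.72 to 1.004 for vessels, 0.45 to 0.52 for oligodendrocytes, 0.34 to 0.92 for microglia, 0.13 to 0.23 for lysosomes, -0.24 to 0.25 for mitochondria, -0.15 to 0.03 for the endoplasmic reticulum, -0.39 to 0.034 for excitatory and -0.34 to 0.0064 for inhibitory receptors, -0.47 to -0.25 for adhesion and -0.38 to 0.24 for vesicles. RNN minus RSN ran from 0.019 to 0.055 and length from 0.0054 to 0.062.

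The deviations of libraries with the same replicate number correlated at r = 0.03 over all tested isoforms. Many of these isoforms were of low level with a wide spread of replicates. The value therefore cannot decide whether the replicate numbers pair the libraries. With a replicate block 0 isoforms passed an adjusted p of 0.05 (limma), 1387 were higher and 1312 lower unadjusted, and at 50 TPM 301 were higher and 276 lower at an adjusted p under 0.05.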
